A study of Homo sapiens with 18 samples.

Results

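The genes described here are the guidance genes of MDA-MB-231 cells: semaphorins, plexins, ephrins, Eph receptors, SLIT and ROBO genes, netrins and UNC5 receptors. They were chosen by symbol and by a mean level of at least 0.5 CPM (counts per 1e+06 counts of the library) over 18 RNA-seq libraries, whatever their response to treatment. Of 66 symbols of these families in the files, 47 passed and are called members below, among 60642 symbols in all. MDA-MB-231 is an established human line of mesenchymal triple-negative breast cancer. The study asked which genes regulated by the glucocorticoid receptor (GR) depend on the methyltransferase PRMT5 and on the chromatin protein HP1γ, encoded by CBX3. Cells received 25 nM of a SMART-pool siRNA, a mix of siRNAs to the same target, for 48 h: a non-specific pool (siNS), a pool against HP1γ (siHP1γ) or a pool against PRMT5 (siPRMT5). During the last 8 h the medium held 100 nM dexamethasone (Dex), a synthetic glucocorticoid, or ethanol (Eth), its solvent. These 6 conditions had 3 biological replicates each, all of the same cell line, and every control was itself transfected with siRNA, so no untransfected cells enter the comparisons.

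Semaphorins are secreted or membrane-bound ligands that act mainly through plexins, often with a neuropilin as co-receptor for the secreted class, and the bound plexin acts on small GTPases and the cytoskeleton. Ephrins are membrane-tethered ligands of the Eph receptor tyrosine kinases, and signals run into both the ligand-bearing and the receptor-bearing cell. SLIT proteins are secreted ligands of ROBO receptors, and netrins are laminin-related proteins that bind DCC and UNC5 receptors. All were first known for steering axons, and in epithelial and tumour cells they affect adhesion, spreading and migration.

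The members comprised 15 of 20 semaphorin symbols, 8 of 9 plexins, 7 of 8 ephrins, 8 of 14 Eph receptors, 4 of 4 ROBO genes, 1 of 3 SLIT genes, 2 of 4 netrins and 2 of 4 UNC5 genes. The least abundant members were EPHA7 at 0.550 CPM and EPHA5 at 0.594 CPM, and SEMA3G lay just below the limit at 0.460 CPM. EPHA8, NTN3 and UNC5D had no count in any library. All 47 members also passed the filter on low counts that kept 15298 genes for testing. Levels below are CPM scaled by TMM, which corrects for library composition, and they are compared between conditions and not between genes, since the type of library kit, and so the part that transcript length plays in a count, is not given in the sources used here. Means are given with the SD over 3 replicates. Where the text says that a gene rose or fell, it passed edgeR's quasi-likelihood test with Benjamini-Hochberg adjustment over the 15298 genes, at adjusted p below 0.05 for the effect of an siRNA and for interactions, and below 0.01 with a change of at least 1.5-fold for the effect of Dex. SE stands for the standard error of such a change.

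The libraries held 8682992 to 12472381 counts, of which members took 0.129% to 0.165%. Both siRNA pools lowered their targets: PRMT5 fell by 4.50 on the log2 scale with Dex and by 5.08 without, and CBX3 fell by 4.06 with Dex and by 4.69 without. PRMT5 also fell by 0.35 in siHP1γ Dex and by 0.25 in siHP1γ Eth cells on that scale. Of 7 markers listed for the line, VIM stood at 5610 to 9530 CPM, MSN at 1270 to 1580 CPM and CD44 at 507 to 844 CPM. CAV1 was at 379 to 803 CPM, AXL at 178 to 989 CPM and ZEB1 at 167 to 351 CPM. SPARC, also on that list, was at only 5.7 to 10.7 CPM. CDH1 and PGR were at 0 in 17 of 18 libraries and ESR1 in 12, low as in a triple-negative mesenchymal line. ERBB2, the third receptor by which triple-negative tumours are defined, was at 24.1 to 35.1 CPM and GATA3 at 2.71 to 7.63 CPM, so these mRNAs were not absent. Of the markers of other cell types, LUM was at 0 in all 18 libraries. The summed endothelial list (PECAM1, CDH5, VWF) ranged from 1.96 to 2.70 CPM in siNS Eth and from 6.26 to 8.10 CPM in siPRMT5 Dex. Over all libraries PECAM1 ranged from 1.09 to 7.99 CPM, and CDH5 and VWF reached no more than 0.7 CPM each. The summed fibroblast list (DCN, LUM, COL1A1, PDGFRA) ranged from 2.74 to 3.50 CPM in siNS Eth and from 12.8 to 15.1 CPM in siPRMT5 Eth. The summed neuronal list (SNAP25, SYP, RBFOX3) ran from 7.61 to 9.13 CPM in siNS Eth and 6.43 to 7.29 CPM in siNS Dex against 2.65 to 3.19 CPM in siPRMT5 Eth and 2.05 to 2.77 CPM in siPRMT5 Dex, and from 8.74 to 9.59 CPM in siHP1γ Eth; it was mostly RBFOX3, and SNAP25 was at 0 in 17 of 18 libraries. Their part in the results below was not tested.

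Dex changed 8 members in siNS cells, 4 up and 4 down. The 4 semaphorins that passed the test all fell: SEMA3A, SEMA3E, SEMA4B and SEMA7A. The 2 plexins that passed, PLXNA2 and PLXNA3, both rose, as did the ephrin EFNB2 and the netrin NTN4. The 8 calls are 17% of 47 members, against 2.71% of all genes tested (1.65% up and 1.06% down). No Eph receptor, ROBO, SLIT or UNC5 gene passed. As these are bulk samples, fewer cells that make an mRNA and less of it per cell cannot be told apart. The median log2 fold change of members was 0.17, against 0.00 over all genes.

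The promoters of EFNB2, PLXNA2, SEMA4B and SEMA7A are shown as examples of genes that answered Dex in the same direction under all 3 siRNAs, 2 of them up and 2 down (values below). They were picked from 6 such members, so nothing is read from what they share; NTN4 has a promoter in the table that is not shown, and SEMA3A has no entry. Each sequence holds the 250 bases before a RefSeq transcription start (GRCh38.p14), written 5′ to 3′ in the direction of the gene, and capitals mark GC boxes (GGGCGG, or CCGCCC on the other strand).
EFNB2, chr13:106535663-106535912, minus strand: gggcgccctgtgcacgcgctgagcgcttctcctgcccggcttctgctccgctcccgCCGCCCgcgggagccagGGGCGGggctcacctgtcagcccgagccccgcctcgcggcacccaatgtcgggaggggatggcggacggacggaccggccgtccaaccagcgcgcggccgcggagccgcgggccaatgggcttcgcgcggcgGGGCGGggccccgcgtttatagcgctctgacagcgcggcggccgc
PLXNA2, chr1:208244385-208244634, minus strand: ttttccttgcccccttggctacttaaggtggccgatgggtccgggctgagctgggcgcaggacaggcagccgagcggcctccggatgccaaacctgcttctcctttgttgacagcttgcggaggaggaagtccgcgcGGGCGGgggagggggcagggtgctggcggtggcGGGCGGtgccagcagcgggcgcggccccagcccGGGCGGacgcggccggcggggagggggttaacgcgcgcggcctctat
SEMA4B, chr15:90184670-90184919, plus strand: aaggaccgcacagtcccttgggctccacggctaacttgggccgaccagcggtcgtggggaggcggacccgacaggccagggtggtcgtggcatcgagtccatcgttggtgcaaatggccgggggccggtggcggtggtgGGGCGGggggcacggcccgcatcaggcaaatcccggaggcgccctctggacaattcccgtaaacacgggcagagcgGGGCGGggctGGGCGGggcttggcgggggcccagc
SEMA7A, chr15:74433959-74434208, minus strand: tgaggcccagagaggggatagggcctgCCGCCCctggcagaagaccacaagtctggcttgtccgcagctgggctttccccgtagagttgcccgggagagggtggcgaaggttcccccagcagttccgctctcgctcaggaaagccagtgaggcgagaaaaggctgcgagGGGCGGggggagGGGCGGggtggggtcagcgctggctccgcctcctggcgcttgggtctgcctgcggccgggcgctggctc
Each of the 4 shown holds 3 GC boxes. At least 1 GC box occurred for 6 of the 7 members called for Dex in siNS that have a promoter in the table. The same held for 39 of all 41 members with a promoter there, so a GC box does not set the Dex-called members apart. For SEMA4B the table lists 3 starts, and the one shown is the nearest to the start of the gene in GENCODE, 24316 bases from it, so it may not be the start used in these cells. RefSeq promoters were at hand for 41 of 47 members, 68 promoters in all; EFNB3, NTN1, SEMA3A, SEMA6A, SEMA6B and UNC5B had no entry. In these windows a GC box occurred in 52 of 68 member promoters (76.5%), against 42.6% of 35116 promoters. The hexamer AGAACA, or TGTTCT on the other strand, which is part of the sequence GR binds, occurred in 0 of 68, against 12.4% of all promoters, and the AP-1 sequence TGANTCA in 1 of 68, that of PLXNC1, against 6.57%. Median GC content was 68.4% for member promoters and 58% for all. These letters describe a short window only, and GR sites farther away were not searched.

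EFNB2, a transmembrane ligand of EphB receptors and EPHA4, was the member with the largest increase. Its level was 55.4, 57.8 and 51.99 CPM in the 3 siNS Eth libraries and 136, 141 and 126 CPM in siNS Dex. Every Dex library lay above every Eth library, and the change was 2.44-fold (log2 fold change 1.29, SE 0.0784, adjusted p = 2.98e-12).

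PLXNA2, a receptor for class 3 and class 6 semaphorins, stood at 63.8, 68.2 and 66.3 CPM with Eth and at 122, 124 and 124 CPM with Dex, a rise of 0.90 on the log2 scale (SE 0.0868, adjusted p = 2.3e-08). NTN4, a secreted netrin found in basement membranes, stood at 18.99, 18.1 and 19.2 CPM with Eth and at 32.2, 31.8 and 30.2 CPM with Dex (log2 fold change 0.74, SE 0.0823, adjusted p = 2.44e-07). In both genes the replicates within a condition lay close together and the conditions did not overlap. PLXNA3, a plexin that acts with NRP2 in SEMA3F signalling, was at 4.53, 7.03 and 4.76 CPM with Eth and 9.72, 8.17 and 9.70 CPM with Dex (log2 fold change 0.76, SE 0.163, adjusted p = 0.00247). The Eth libraries of PLXNA3 were uneven, with replicate 2 above the others, and the call was lost when any of siNS Eth replicate 1 or 3 or siNS Dex replicate 1 or 3 was left out, with an adjusted p of at most 0.027. PLXNA3 overlaps LAGE3 on the opposite strand, and reads of overlapping genes on opposite strands can be told apart only if strand was used in counting, which is not given in the sources used here. Exons of EFNB2, EPHA4, EPHA5, EPHB2, ROBO2, ROBO4, SEMA3F, SEMA6A and SEMA6D also overlap annotated genes on the opposite strand, so the same limit holds for them.

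SEMA3A, the secreted collapsin that signals through NRP1 and class A plexins, had the largest decrease among the members that passed (EPHA5, at few counts, had a log2 fold change of -1.20 with an adjusted p of 0.331). It was at 38.8, 34.5 and 33.9 CPM in siNS Eth and at 14.7, 15.7 and 19.6 CPM in siNS Dex. All Dex libraries lay below all Eth libraries, and the fold change was 0.467 (log2 fold change -1.10, SE 0.114, adjusted p = 8.59e-08). SEMA3E, a secreted ligand of PLXND1, was at 44.6, 42.2 and 39.7 CPM with Eth and at 22.4, 27.4 and 28.02 CPM with Dex (log2 fold change -0.70, SE 0.11, adjusted p = 5.08e-05), again without overlap. Its known receptor PLXND1 was at 84.01, 104 and 86.6 CPM with Eth and 113, 111 and 117 CPM with Dex, a log2 fold change of 0.31 that missed the threshold (adjusted p = 0.0147).

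The membrane-bound semaphorins that fell were SEMA4B and SEMA7A. SEMA4B, a transmembrane class 4 semaphorin, was at 165, 189 and 176 CPM with Eth and at 91.6, 80.5 and 90.4 CPM with Dex (log2 fold change -1.01, SE 0.0836, adjusted p = 1.25e-09). SEMA7A, a GPI-anchored semaphorin that binds PLXNC1 and integrins, was at 16.3, 20.8 and 18.02 CPM with Eth and at 8.92, 9.04 and 9.61 CPM with Dex, means of 18.4 and 9.19 CPM (SE 0.127 on the log2 scale, adjusted p = 2.34e-06). In both genes all Dex libraries lay below all Eth libraries. The other 11 semaphorins had log2 fold changes from -0.40 (SEMA4D, a ligand of PLXNB1) to 0.33 (SEMA4G), and none passed.

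Of the 8 members that Dex changed in siNS cells, 6 also passed in the same direction in siHP1γ and in siPRMT5 cells, which share no library with the siNS comparison: EFNB2, NTN4 and PLXNA2 rose, and SEMA3A, SEMA4B and SEMA7A fell. In siHP1γ cells these 6 were the only members called (12.8% of 47, against 1.67% of all genes, 1.01% up and 0.66% down). EFNB2 was at 58.1, 58.3 and 59.5 CPM in siHP1γ Eth and at 131, 137 and 132 CPM in siHP1γ Dex. In siPRMT5 it was at 60.2, 57.9 and 65.8 CPM with Eth and at 129.5, 149.8 and 158 CPM with Dex. Its Dex response was 1.18 (SE 0.0775) and 1.25 (SE 0.0778) on the log2 scale, close to the 1.29 of siNS; the 95% intervals of the differences from siNS ran from -0.34 to 0.14 for siHP1γ and from -0.28 to 0.20 for siPRMT5.

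SEMA4B was at 200.4, 184 and 179 CPM in siHP1γ Eth and 88.5, 103 and 105 CPM in siHP1γ Dex (log2 fold change -0.93). In siPRMT5 it was at 203, 189 and 179 CPM with Eth and 81.3, 68.1 and 71.4 CPM with Dex (log2 fold change -1.37). The Eth levels of the 3 siRNAs overlapped, and siPRMT5 Dex had the lowest mean, though its libraries overlapped those of siNS Dex. SEMA7A was at 19.5, 20.9 and 21.3 CPM in siHP1γ Eth and 9.84, 12.52 and 10.6 CPM in siHP1γ Dex (log2 fold change -0.91). In siPRMT5 it was at 11.1, 12.3 and 11.9 CPM with Eth and 4.20, 5.51 and 6.34 CPM with Dex (log2 fold change -1.14). SEMA7A had its lowest levels in siPRMT5 Dex, below every other library. SEMA3A was at 37.1, 37.1 and 32.4 CPM in siHP1γ Eth and 22.98, 22.2 and 20.1 CPM in siHP1γ Dex (log2 fold change -0.70). In siPRMT5 it was at 39.3, 48.02 and 48.5 CPM with Eth and 22.3, 21.5 and 25.5 CPM with Dex (log2 fold change -0.98). PLXNA2 was at 65.4, 62.2 and 62.4 CPM in siHP1γ Eth and 88.2, 110.0 and 99 CPM in siHP1γ Dex, and in siPRMT5 at 62.1, 69.6 and 66.7 CPM with Eth and 86.3, 101 and 112 CPM with Dex. PLXNA2 had no overlap between Eth and Dex under any siRNA, and its response of 0.64 in siHP1γ and 0.59 in siPRMT5 was not separable from that in siNS (adjusted p = 0.286 and 0.171 for the differences).

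SEMA3E and PLXNA3 passed for Dex only in siNS. SEMA3E had log2 fold changes of -0.33 in siHP1γ and -0.39 in siPRMT5, and the difference from siNS did not pass (adjusted p = 0.222 and 0.34). In siPRMT5, 12 of 47 members were called for Dex (25.5%, against 5.44% of all genes, 2.69% up and 2.75% down), 5 up and 7 down. Beside the 6 shared ones, EFNA5, a GPI-anchored ligand of EphA receptors, rose from 12.3 to 23.4 CPM (log2 fold change 0.92, SE 0.14, adjusted p = 1.89e-05) and PLXNC1 rose. EPHA2, a receptor of ephrin-A ligands that is abundant in many carcinoma lines, fell by 0.80 on the log2 scale, and EPHB3, SEMA3F and SLIT2 fell as well. EPHA2 had negative log2 fold changes in siNS (-0.42) and siHP1γ (-0.56) too, below the 1.5-fold limit, with adjusted p = 0.00203 and 8.58e-05.

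PRMT5 depletion raised PLXNA1, NTN4 and SEMA4C and lowered SEMA3E, SEMA4G, PLXNB1 and UNC5A, with and without Dex. With Dex 27 of 47 passed (57.4%, against 42.4% of all genes, 20.6% up and 21.9% down), 8 up and 19 down. Without Dex 24 passed (51.1%, against 42.1% of all genes, 20.6% up and 21.6% down), 15 up and 9 down. The median log2 fold change of members was -0.25 with Dex and 0.11 without, against 0.00 over all genes in both. Members changed in either were 36, of which 5 rose in both (NTN4, PLXNA1, SEMA3A, SEMA4C and SLIT2), 8 fell in both (EFNB1, PLXNB1, SEMA3E, SEMA4D, SEMA4G, SEMA6A, SEMA7A and UNC5A) and 2, PLXNA3 and ROBO1, rose without Dex and fell with it. With Dex 7 of 8 plexins were called, 2 up (PLXNA1 and PLXNC1) and 5 down, and 3 of 4 ROBO genes fell. The 2 comparisons use different libraries. With an offset for GC content and transcript length, an alternative chosen after seeing the data, the splits were 11 up and 16 down with Dex and 15 up and 12 down without. With it PLXNA3 no longer rose without Dex (0.28, adjusted p = 0.149), and with Dex ROBO3 (-0.21, adjusted p = 0.115), EPHA2, SEMA4B and SEMA6A no longer fell.

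**Figure D1:**
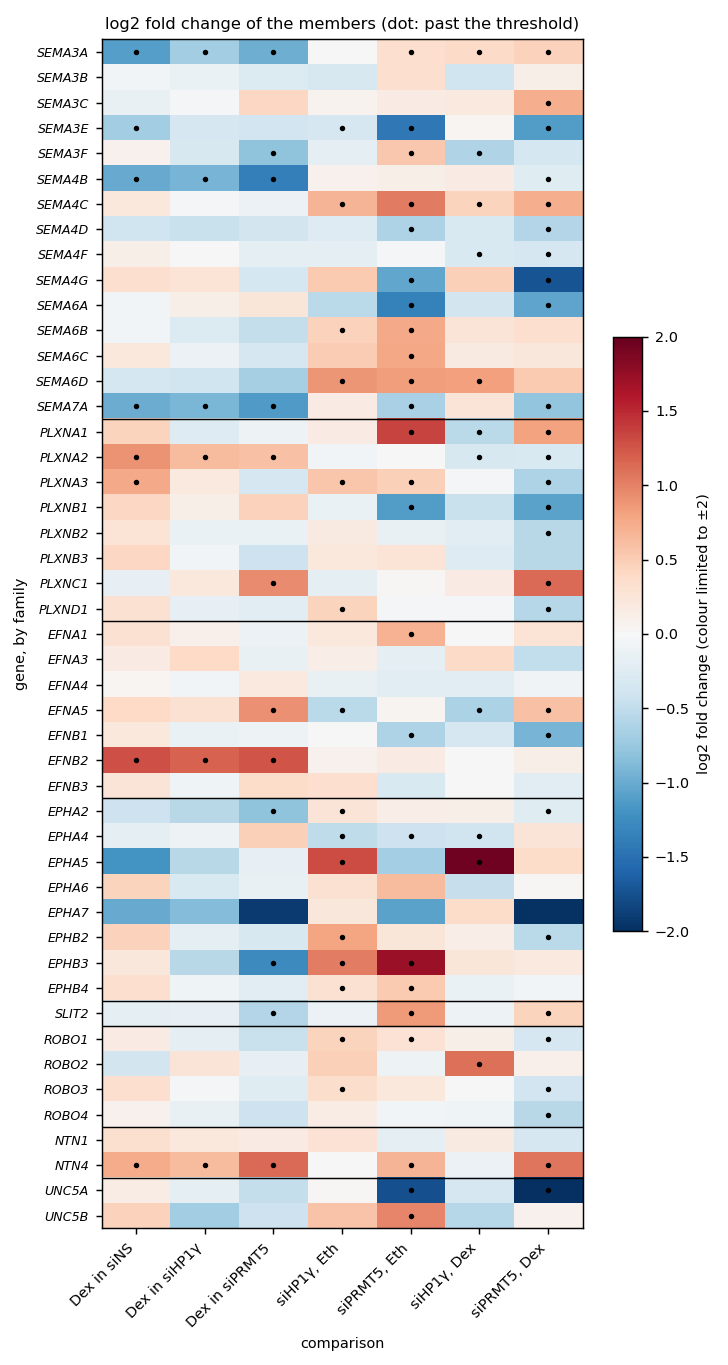
Log2 fold change of each of the 47 members (rows, by family) in 7 comparisons (columns): Dex against Eth under each siRNA, and each depletion against siNS with Eth or with Dex; red is higher and blue lower, with the colour limited to ±2, and a dot marks a member past the threshold of that comparison. In the columns of siPRMT5, SEMA3E, SEMA4G, PLXNB1 and UNC5A are lower with and without Dex, and PLXNA1, NTN4 and SEMA4C are higher.

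PLXNA1, a receptor for class 3 semaphorins together with NRP1, rose most among the abundant members. It was at 109.6, 141 and 111 CPM in siNS Eth and at 294, 315 and 312 CPM in siPRMT5 Eth (log2 fold change 1.35, SE 0.102, adjusted p = 6.89e-11). With Dex it was at 168, 153 and 174 CPM in siNS and 258, 283 and 321 CPM in siPRMT5 (log2 fold change 0.80, SE 0.0999, adjusted p = 4.07e-07). Every siPRMT5 library was above every siNS library. NTN4 was at 29.1, 29.1 and 31.8 CPM in siPRMT5 Eth and at 65.7, 65.3 and 66.4 CPM in siPRMT5 Dex, with a mean of 65.8 CPM against 31.4 CPM in siNS Dex (log2 fold change 1.07, SE 0.0735, adjusted p = 1.15e-11). Without Dex its log2 fold change was 0.68 (adjusted p = 3.28e-07). The siPRMT5 Dex libraries thus held the highest NTN4 levels of all conditions, above both Dex alone and siPRMT5 alone.

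SEMA4C, a transmembrane ligand of PLXNB2, was at 16.8, 17.5 and 16.99 CPM in siNS Eth and 39.8, 30.2 and 35.7 CPM in siPRMT5 Eth (log2 fold change 1.04, SE 0.107, adjusted p = 1.51e-08). With Dex it was at 21.6, 18.2 and 19.2 CPM in siNS and 30.2, 33.2 and 33.95 CPM in siPRMT5 (log2 fold change 0.72, adjusted p = 3.64e-06). The siRNAs did not overlap under either treatment. PLXNB2 itself fell with Dex, from 236 ± 5.58 to 159 ± 21.8 CPM (log2 fold change -0.56, SE 0.0962, adjusted p = 3.36e-05), and had a log2 fold change of -0.15 without Dex (adjusted p = 0.219). The difference between the 2 values did not pass (interaction -0.41, adjusted p = 0.087), and with the GC and length offset it passed without Dex too (log2 fold change -0.32, adjusted p = 2.88e-05). SEMA3C, a secreted semaphorin that binds NRP1 and NRP2, was at 29.5, 33.99 and 33.9 CPM in siNS Dex and 46.5, 61.2 and 53.2 CPM in siPRMT5 Dex (log2 fold change 0.73, SE 0.102, adjusted p = 2.3e-06). PLXNC1, the receptor of SEMA7A, was at 4.06, 3.16 and 2.99 CPM in siNS Dex and 7.33, 8.14 and 6.90 CPM in siPRMT5 Dex (log2 fold change 1.13, SE 0.175, adjusted p = 9.84e-06), while its ligand SEMA7A fell by 0.79 on the log2 scale. SEMA3C and PLXNC1 rose without overlap between siNS and siPRMT5. PLXNC1 shares exon sequence on the opposite strand with CEP83, so part of its counts may belong there.

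Among the semaphorins that fell, SEMA3E was at 13.6, 17.7 and 15.5 CPM in siPRMT5 Eth and at 12.1, 11.9 and 11.5 CPM in siPRMT5 Dex. Against siNS the log2 fold change was -1.43 (SE 0.118, adjusted p = 3.42e-10) without Dex and -1.12 (SE 0.125, adjusted p = 6.86e-08) with Dex. These 6 libraries all lay below the other 12. SEMA4G, a transmembrane class 4 semaphorin at low counts, was at 2.21, 3.46 and 1.45 CPM in siNS Eth and 1.07, 0.939 and 1.40 CPM in siPRMT5 Eth, and at 3.36, 2.62 and 2.99 CPM in siNS Dex and 1.56, 0.575 and 0.566 CPM in siPRMT5 Dex. The groups did not overlap under either treatment, with log2 fold changes of -1.04 (SE 0.376, adjusted p = 0.0273) and -1.73 (SE 0.362, adjusted p = 0.000369). The call without Dex was lost when siPRMT5 Eth replicate 1 or 2 or siNS Eth replicate 2 was left out, with an adjusted p of at most 0.22, and SEMA4G shares exon sequence with MRPL43 on the opposite strand. SEMA6A, whose mean was below 1 CPM in siPRMT5 cells, had log2 fold changes of -1.35 without Dex and -1.06 with Dex (adjusted p = 0.021 and 0.0496).

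PLXNB1, the receptor of SEMA4D, fell together with that ligand. It was at 2.32, 2.65 and 2.28 CPM in siNS Eth and 0.859, 1.17 and 1.30 CPM in siPRMT5 Eth, and at 3.27, 3.05 and 3.35 CPM in siNS Dex and 1.66, 1.64 and 1.25 CPM in siPRMT5 Dex. No siPRMT5 library reached a siNS library, with log2 fold changes of -1.11 (SE 0.262, adjusted p = 0.00125) and -1.07 (SE 0.222, adjusted p = 0.000336). SEMA4D fell by 0.61 without Dex and by 0.58 with Dex on the log2 scale (adjusted p = 0.00563 and 0.0115), though with Dex its siNS and siPRMT5 libraries overlapped. UNC5A, a netrin receptor, had the largest decrease of all members but rests on few counts, 65 in the 3 siNS Dex libraries together and 12 in the 3 siPRMT5 Dex libraries. It was at 2.21, 2.07 and 1.90 CPM in siNS Dex and 0.391, 0.411 and 0.340 CPM in siPRMT5 Dex (log2 fold change -2.39, SE 0.386, adjusted p = 1.75e-05). Without Dex it was at 1.77, 2.55 and 1.24 CPM in siNS and 0.322, 1.06 and 0.300 CPM in siPRMT5 (log2 fold change -1.76, SE 0.384, adjusted p = 0.000582). No siPRMT5 library overlapped a siNS library, and UNC5A shares exon sequence with HK3 on the opposite strand.

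The other netrin receptor among the members, UNC5B, was at 0.773, 0.713 and 1.14 CPM in siNS Eth and 1.18, 1.996 and 2 CPM in siPRMT5 Eth (log2 fold change 0.97, SE 0.32, adjusted p = 0.0168). The groups did not overlap, but the call was lost without siNS Eth replicate 1 or 2 or siPRMT5 Eth replicate 2 or 3, by DESeq2 and with no filter on low counts, with an adjusted p of at most 0.0833, and it rests on 25 counts in siNS Eth and 48 in siPRMT5 Eth. EPHB3, a receptor of ephrin-B ligands known from the intestinal crypt, was at 0.994, 1.43 and 1.04 CPM in siNS Eth and 3.86, 3.05 and 4.50 CPM in siPRMT5 Eth (log2 fold change 1.72, SE 0.264, adjusted p = 8.86e-06). This was the largest increase without Dex, and with Dex the 2 siRNAs overlapped (log2 fold change 0.20, adjusted p = 0.622). SLIT2, the only SLIT gene among the members, rose in both, from 12.1 ± 0.839 to 21.9 ± 1.92 CPM without Dex (adjusted p = 1.67e-06) and from 10.7 ± 1.34 to 14.5 ± 1.38 CPM with Dex (adjusted p = 0.00445). EFNB1, the ephrin on the X chromosome, fell in both, by 0.62 without Dex and by 0.93 with Dex on the log2 scale.

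**Figure D2:**
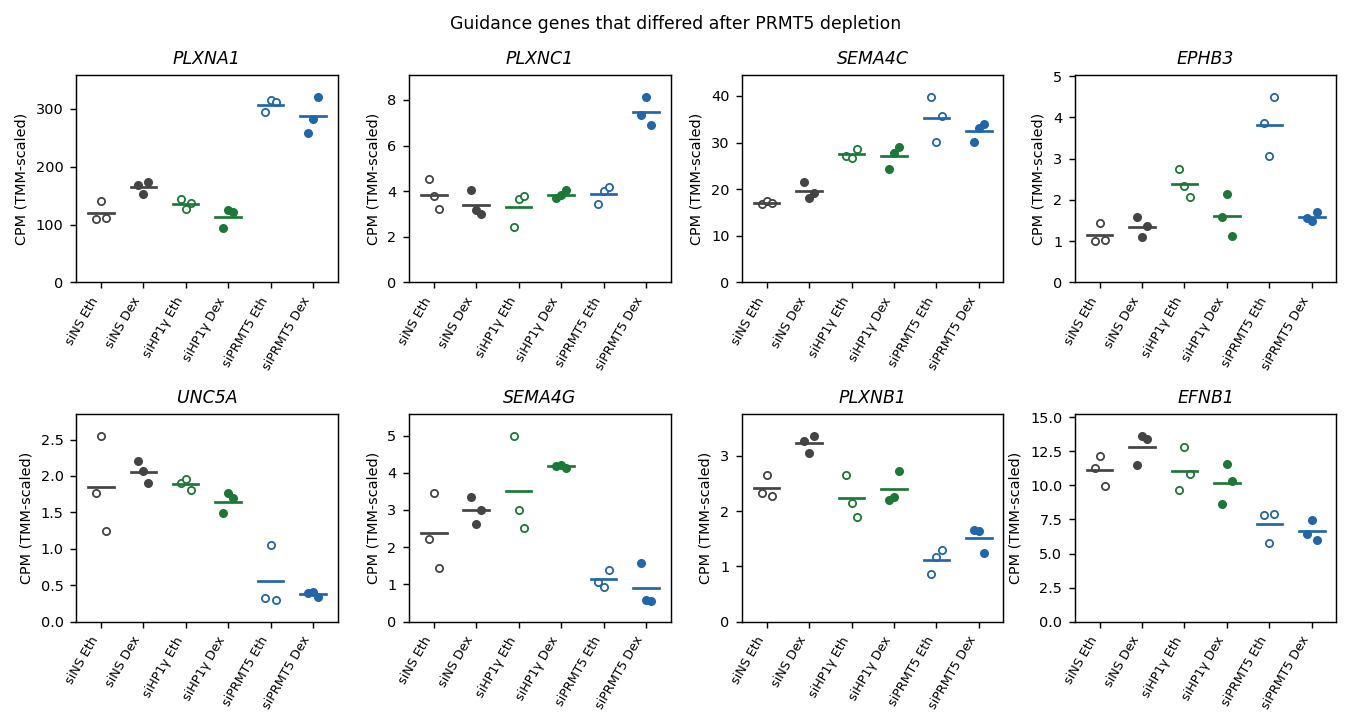
Level of 8 members that changed after PRMT5 depletion, in each of the 18 libraries; the vertical axes give TMM-scaled CPM from 0, each point is a library (open Eth, filled Dex) and lines are means of the 3 replicates. PLXNA1 lies at 258 to 321 CPM in the siPRMT5 libraries and no higher than 174 CPM in siNS, while UNC5A, SEMA4G, PLXNB1 and EFNB1 are lower in siPRMT5.

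Under HP1γ depletion SEMA4C and SEMA6D were higher and EFNA5 and EPHA4 lower with and without Dex. With Dex 11 of 47 passed (23.4%, against 24% of all genes, 11.7% up and 12.3% down), 5 up and 6 down, a share near the background. Without Dex 15 passed (31.9%, against 31.8% of all genes, 16.5% up and 15.2% down), again near the background, 12 up and 3 down. Of the 21 members changed in either, 5 changed in the same direction in both (EPHA5, SEMA4C and SEMA6D up, EFNA5 and EPHA4 down) and none in opposite directions. Of the 8 Eph receptors 6 were called without Dex, of which EPHA2, EPHA5, EPHB2, EPHB3 and EPHB4 rose and EPHA4 fell. EPHA5 is counted in these tallies, but it met the 0.5 CPM limit through its siHP1γ libraries (values below). Its rise is therefore not independent of how the members were chosen. With an offset for GC content and transcript length, an alternative chosen after seeing the data, the split without Dex became 8 up and 7 down, and 10 of the 15 were shared. With it 4 of the 8 Eph receptors were called, since EPHA2 (0.04, adjusted p = 0.605) and EPHB4 (0.06, adjusted p = 0.66) no longer passed. The count with Dex fell to 5 without siHP1γ Dex replicate 1 and to 7 without siNS Dex replicate 2 or 3, and the count without Dex to 8 without siNS Eth replicate 1.

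SEMA4C was at 27.1, 26.8 and 28.6 CPM in siHP1γ Eth and 24.2, 27.7 and 29.1 CPM in siHP1γ Dex, above every siNS library of the same treatment, with log2 fold changes of 0.68 (SE 0.108, adjusted p = 2.58e-05) and 0.45 (SE 0.104, adjusted p = 0.00235). It was thus higher under both siRNAs and both treatments. SEMA6D, a transmembrane ligand of PLXNA1, was at 2.21, 2.45 and 3.31 CPM in siNS Eth and 4.67, 5.14 and 4.86 CPM in siHP1γ Eth (log2 fold change 0.88, SE 0.242, adjusted p = 0.00697). With Dex it was at 2.56, 1.96 and 1.72 CPM in siNS and 4.57, 3.81 and 2.63 CPM in siHP1γ (log2 fold change 0.82, SE 0.258, adjusted p = 0.0211). The groups did not overlap in either, and the call with Dex was lost without siHP1γ Dex replicate 1 or 2 or siNS Dex replicate 2 or 3 (adjusted p at most 0.135). ROBO2, a SLIT receptor, was at 0.883, 1.20 and 0.726 CPM in siNS Dex and 2.12, 1.96 and 1.88 CPM in siHP1γ Dex (log2 fold change 1.10, SE 0.299, adjusted p = 0.00804), without overlap, on 29 and 67 counts in all, and at an adjusted p of 0.0519 without siNS Dex replicate 3.

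Ephrin-A5 and its receptor EPHA4 were both lower under siHP1γ. EFNA5 was at 11.2, 11.6 and 12.8 CPM in siNS Eth and 7.32, 6.83 and 10.2 CPM in siHP1γ Eth, and at 15.7, 13.7 and 17.4 CPM in siNS Dex and 9.76, 8.702 and 11.9 CPM in siHP1γ Dex. The siHP1γ libraries lay below the siNS libraries of the same treatment, with log2 fold changes of -0.54 (SE 0.161, adjusted p = 0.0112) and -0.63 (SE 0.146, adjusted p = 0.00239); without siHP1γ Eth replicate 2 the call without Dex was lost at an adjusted p of 0.0721. EPHA4 was at 9.05, 9.68 and 11.7 CPM in siNS Eth and 7.42, 7.48 and 6.58 CPM in siHP1γ Eth, and at 8.83, 9.26 and 8.43 CPM in siNS Dex and 6.46, 6.94 and 6.67 CPM in siHP1γ Dex. The groups did not overlap, with log2 fold changes of -0.51 (adjusted p = 0.00444) and -0.40 (adjusted p = 0.0281); the call with Dex was lost in 4 of 18 fits that each left out a library (siNS Dex replicate 1 or 2, siHP1γ Dex replicate 1 or 3) and under 4 other alternatives, among them DESeq2, with an adjusted p of at most 0.0946. EFNA5 moved the other way under siPRMT5 with Dex, to 23.4, 25.1 and 21.6 CPM (log2 fold change 0.58 against siNS, adjusted p = 0.000961).

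SEMA3A, which Dex lowered, was less low in siHP1γ Dex than in siNS Dex (log2 fold change 0.39, SE 0.118, adjusted p = 0.018), with no overlap, and without Dex the log2 fold change was -0.01 (adjusted p = 0.97). The call was lost without siNS Dex replicate 1 or 2 or siHP1γ Dex replicate 1 (adjusted p at most 0.111). The Dex response of SEMA3A did not pass as different between siHP1γ and siNS. In the main fit no semaphorin passed for this interaction, and the values of the 15 semaphorins ran from -0.40 to 0.39. With the GC and length offset, chosen after seeing the data, the interaction of SEMA3A was 0.23 (adjusted p = 0.528). SEMA3F, a secreted semaphorin that signals through NRP2, was at 6.98, 7.63 and 7.71 CPM in siNS Dex and 3.86, 4.89 and 6.11 CPM in siHP1γ Dex (log2 fold change -0.60, SE 0.181, adjusted p = 0.017), without overlap, and the call was lost without siHP1γ Dex replicate 1 or siNS Dex replicate 3 (adjusted p at most 0.117). PLXNA1 was at 94.1, 126 and 122 CPM in siHP1γ Dex, below all 3 siNS Dex libraries (log2 fold change -0.54, SE 0.102, adjusted p = 0.000326), the opposite of its rise under siPRMT5. SEMA3E without Dex was at 36.5, 34.6 and 29.9 CPM in siHP1γ (log2 fold change -0.33, adjusted p = 0.0218), lower than every siNS Eth library, and the call was lost without siNS Eth replicate 1 or siHP1γ Eth replicate 3 and with library size alone (adjusted p at most 0.123). EPHA5, under 1 CPM on average, had 7 counts in the 3 siNS Dex libraries together and 30 in siHP1γ Dex (log2 fold change 1.95, SE 0.609, adjusted p = 0.0208). Its group means were 1.31 CPM in siHP1γ Eth and 0.869 CPM in siHP1γ Dex. They were 0.527 and 0.215 CPM in siNS Eth and Dex, and 0.326 and 0.278 CPM in siPRMT5 Eth and Dex. EPHA5 thus met the 0.5 CPM limit through its siHP1γ libraries, and the limit itself favours a higher level there.

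The 2 depletions were also compared with each other in Dex-treated cells. Here 27 of 47 members differed (57.4%, against 49.9% of all genes, 24.4% higher and 25.5% lower), 8 higher and 19 lower in siPRMT5. PLXNA1 (log2 difference 1.34), EFNA5 (1.21), NTN4 (1.18) and PLXNC1 (0.96) were higher in siPRMT5. SEMA4G (-2.20), UNC5A (-2.06), SEMA3E (-1.17) and SEMA7A (-1.04) were lower. All 4 ROBO genes were lower in siPRMT5, by at least 0.38 on the log2 scale. With the GC and length offset 13 members were higher and 17 lower, the median of members went from -0.28 to -0.13, ROBO3 no longer passed (-0.21, adjusted p = 0.0879) and ROBO4 was at -0.33. Among members with at least 10 counts in every library the median was -0.04. PLXNA2 did not pass, and the 95% interval of its log2 difference ran from -0.17 to 0.20.

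The Dex response of 14 members differed between siPRMT5 and siNS cells, tested as an interaction (29.8% of 47, against 3.8% of all genes, 1.58% higher and 2.23% lower). For 10 the response was lower in siPRMT5: EPHB2, EPHB3, EPHB4, PLXNA1, PLXNA3, PLXND1, ROBO1, ROBO3, ROBO4 and SEMA3F. For 4 it was higher: EPHA4, NTN4, PLXNC1 and SEMA3C. These 10 with a lower response had a positive log2 fold change for Dex in siNS and a negative one in siPRMT5, most of them below the 1.5-fold limit in each. Between siHP1γ and siNS the response of 2 members differed, EPHB2 and PLXNA1, both lower in siHP1γ (4.26% of 47, against 0.399% of all genes, and 0.281% lower). The median interaction over members was -0.33 for siPRMT5 and -0.14 for siHP1γ, against 0.00 and -0.01 over all genes.

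These interaction counts moved with GC content and with the libraries used. The canonical transcripts of members had a median GC content of 58.2%, against 47.5% over 13559 genes tested with a GENCODE transcript, and over those genes the siPRMT5 interaction was negatively related to GC content (Spearman's rho -0.47 across genes, -0.44 across the 47 members, values that share the same libraries). Members with a GC content of at least 55%, a limit chosen after seeing the data, had a median interaction of -0.50 with 24 of 27 negative, and the other members a median of 0.08 with 9 of 20 negative. Over all genes tested the same limit gave a median of -0.19 with 2854 of 3662 negative, and of 0.05 with 4095 of 9897 negative below it. With an offset for GC content and length, an alternative chosen after seeing the data, 7 of the 14 were still called (background 4.79%): EPHB2, PLXNA3 and ROBO1 lower, and EPHA4, NTN4, PLXNC1 and SEMA3C higher. For siHP1γ, PLXNA1 alone was called with that offset. Without siNS Eth replicate 1 the siPRMT5 count fell to 5, and it was 6 without siNS Eth replicate 3, siNS Dex replicate 1 or 3 or siPRMT5 Dex replicate 2, 7 without siPRMT5 Eth replicate 2, 8 without siPRMT5 Eth replicate 1 and 9 without siPRMT5 Dex replicate 1. The same offset left all 8 Dex calls in siNS in place, though the median of members there went from 0.17 to 0.03. With it the median of members for siPRMT5 with Dex went from -0.25 to -0.09. The part of GC content in these differences was not tested further.

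**Figure D3:**
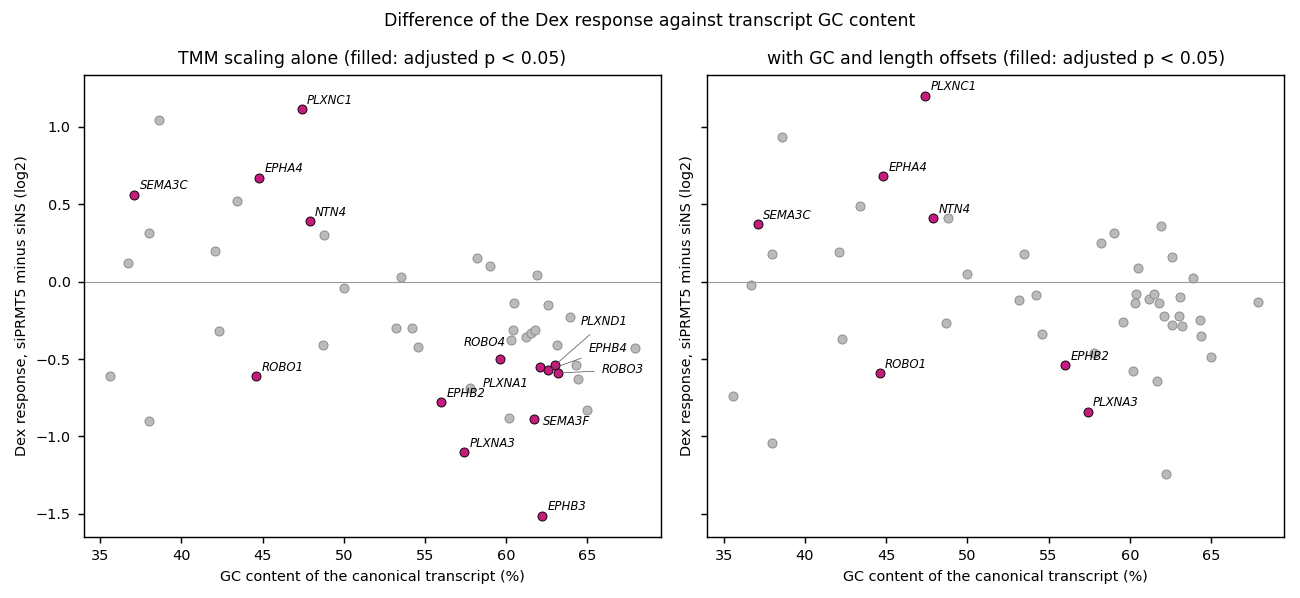
Difference of the Dex response between siPRMT5 and siNS (log2, vertical) against GC content of the canonical transcript in percent (horizontal) for the 47 members, without (left) and with (right) the offset for GC content and length; filled, named points are members past adjusted p of 0.05. On the left members with GC content of at least 55% lie mostly below 0, with a median of -0.50, and on the right 7 members are named.

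Of the 3 members with a lower response that passed with and without that offset, EPHB2, a receptor of ephrin-B ligands, was at 16.1, 18.4 and 15.4 CPM in siNS Eth and 23.1, 23.5 and 22.1 CPM in siNS Dex, but at 20.6, 19.5 and 18.7 CPM in siPRMT5 Eth and 15.8, 14.1 and 17.4 CPM in siPRMT5 Dex. In siHP1γ it was at 29.3, 28.3 and 28.7 CPM with Eth and 23.8, 25.5 and 26.3 CPM with Dex. Dex libraries were thus above Eth libraries in siNS and below them in both depletions, without overlap, and the interactions were -0.78 for siPRMT5 (SE 0.141, adjusted p = 0.00196) and -0.65 for siHP1γ (SE 0.133, adjusted p = 0.0229). Without Dex EPHB2 was 1.73-fold higher in siHP1γ than in siNS (adjusted p = 7.8e-07). The siHP1γ interaction of EPHB2 was lost in 8 of 18 fits that each left out a library and by DESeq2. It was also lost with the GC and length offset (-0.41), which gave the highest adjusted p, 0.149.

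PLXNA3 was at 7.62, 7.40 and 7.80 CPM in siPRMT5 Eth and 6.84, 4.93 and 6.45 CPM in siPRMT5 Dex, where every Dex library was below every Eth library, the reverse of siNS (interaction -1.10, SE 0.232, adjusted p = 0.00695). ROBO1, a broadly expressed SLIT receptor, was at 56.7, 60.1 and 63.2 CPM in siNS Eth and 66.95, 69.5 and 65.6 CPM in siNS Dex. In siPRMT5 it was at 63.96, 76.4 and 79.5 CPM with Eth and 46.6, 57.5 and 56.8 CPM with Dex. Its Dex libraries were above the Eth libraries in siNS and below them in siPRMT5, with an interaction of -0.61 (SE 0.126, adjusted p = 0.00544). The interactions of EPHB2, PLXNA3 and ROBO1 with siPRMT5 kept their calls in every fit that left out a library.

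Among members with a higher response in siPRMT5, PLXNC1 was at 4.53, 3.77 and 3.21 CPM in siNS Eth and 3.43, 3.99 and 4.20 CPM in siPRMT5 Eth, so that it was higher in siPRMT5 with Dex only (interaction 1.11, SE 0.267, adjusted p = 0.0173). The call was lost without siNS Eth replicate 1 or siNS Dex replicate 3 (adjusted p at most 0.0719). SEMA3C had the same shape, at 38.6, 34.2 and 35.01 CPM in siNS Eth and 38.7, 38.4 and 44.1 CPM in siPRMT5 Eth (interaction 0.56, SE 0.146, adjusted p = 0.0289). EPHA4 was at 7.30, 7.75 and 7.90 CPM in siPRMT5 Eth and 9.48, 11.6 and 10.52 CPM in siPRMT5 Dex, higher with Dex, whereas its siNS libraries overlapped (interaction 0.67, SE 0.182, adjusted p = 0.0375). SEMA3C and EPHA4 each lost the call in 6 of 18 fits that left out a library, and EPHA4 also by DESeq2, with no filter on low counts and with the compared libraries alone (adjusted p at most 0.132). The interaction of NTN4 (0.39, SE 0.112, adjusted p = 0.0493) lay at the threshold and was lost in 14 of these 18 fits and under 5 other alternatives.

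The other members with a lower response in siPRMT5 lost the call with the GC and length offset. EPHB4, an ephrin-B2 receptor, was at 18.6, 19.98 and 20.7 CPM in siNS Eth, 25.4, 24.7 and 24.5 CPM in siNS Dex, 28.1, 27.9 and 28.9 CPM in siPRMT5 Eth and 23.1, 24.99 and 24.2 CPM in siPRMT5 Dex (interaction -0.57, adjusted p = 0.0131), and it overlaps SLC12A9 on the opposite strand. PLXND1 was at 90.4, 91.9 and 86.2 CPM in siPRMT5 Eth and 75.3, 73.1 and 81.2 CPM in siPRMT5 Dex (interaction -0.54, adjusted p = 0.00849). For both genes the Dex libraries were above the Eth libraries in siNS and below them in siPRMT5, without overlap. EPHB3 went from 3.81 ± 0.725 CPM in siPRMT5 Eth to 1.56, 1.48 and 1.70 CPM in the siPRMT5 Dex libraries, and was at 1.59, 1.09 and 1.36 CPM in siNS Dex (interaction -1.51, SE 0.402, adjusted p = 0.0314). PLXNA1 had an interaction of -0.55 with siPRMT5 (adjusted p = 0.0277) and of -0.71 with siHP1γ (SE 0.144, adjusted p = 0.0229), where it was at 143, 128 and 137 CPM with Eth, against 94.1, 126 and 122 CPM with Dex. In siHP1γ the Dex libraries of PLXNA1 were below the Eth libraries and in siNS above them, and this siHP1γ call was lost in 6 of 18 fits that left out a library (adjusted p at most 0.116).

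ROBO3, a receptor that in commissural neurons modulates the SLIT response, was at 13.03, 12.7 and 13.98 CPM in siNS Eth, 17.3, 14.9 and 17.96 CPM in siNS Dex, 16.7, 15.3 and 13.9 CPM in siPRMT5 Eth and 12.4, 12.9 and 13.3 CPM in siPRMT5 Dex (interaction -0.59, adjusted p = 0.0317). ROBO4, the endothelial roundabout, was at 39.4, 44.8 and 42.05 CPM in siNS Eth, 48.05, 42.3 and 43.3 CPM in siNS Dex, 38.7, 41.7 and 41.2 CPM in siPRMT5 Eth and 32.3, 27.8 and 31.01 CPM in siPRMT5 Dex (interaction -0.50, adjusted p = 0.0254). The siPRMT5 Dex libraries were the lowest of the 4 conditions for ROBO4, while the endothelial list was highest there, with CDH5 and VWF at no more than 0.7 CPM. SEMA3F was at 5.96, 8.56 and 6.42 CPM in siNS Eth, 9.98, 10.7 and 9.90 CPM in siPRMT5 Eth and 5.77, 4.93 and 7.02 CPM in siPRMT5 Dex (interaction -0.89, SE 0.246, adjusted p = 0.0402). It was highest in siPRMT5 Eth, without overlap with the other conditions named. When single libraries were left out, the call was lost in 1 of 18 fits for EPHB4, 8 for EPHB3, 8 for PLXNA1, 9 for ROBO3, 6 for ROBO4 and 12 for SEMA3F, and in none for PLXND1. EPHB3 also lost it by DESeq2 and ROBO3 with no filter on low counts.

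**Figure D4:**
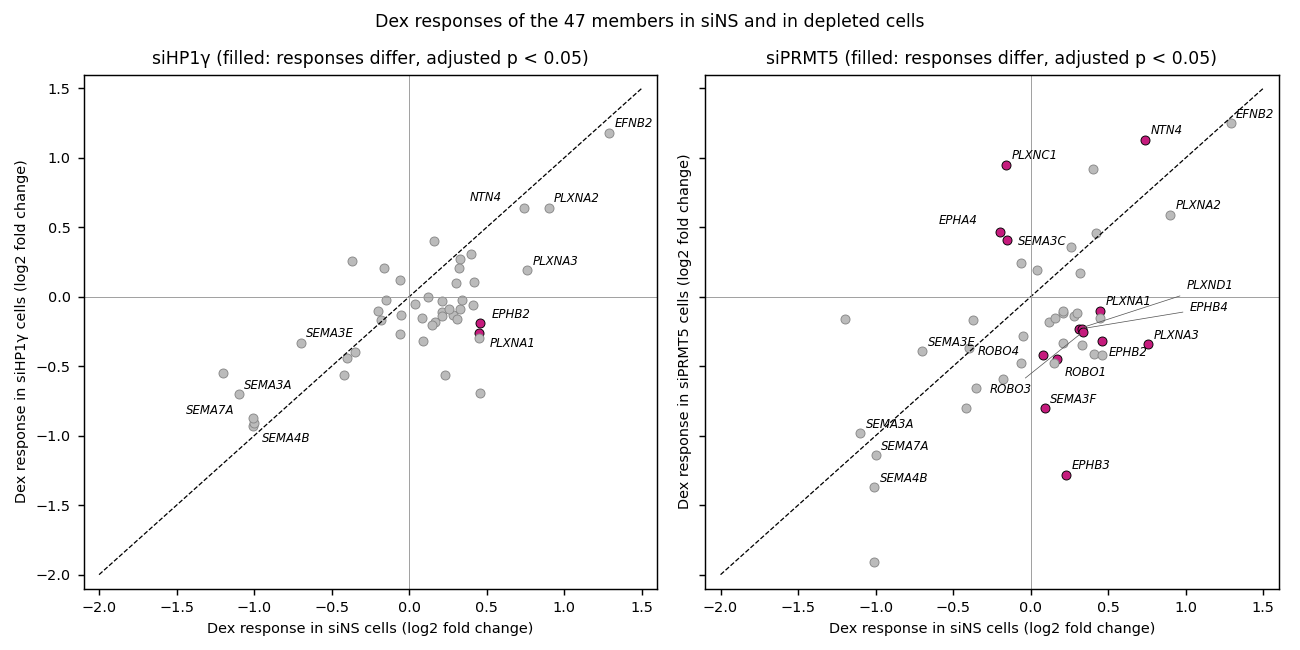
Dex response in siHP1γ (left) and siPRMT5 (right) cells (log2 fold change, vertical) against that in siNS cells (log2 fold change, horizontal) for the 47 members; filled points are members whose responses differed by the interaction test, the dashed line marks equal responses, and members called for Dex in siNS are named too. EFNB2 lies near the line on the right, at 1.29 and 1.25, and the 10 members with a lower response in siPRMT5 lie right of 0 and below it.

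Beyond the members, 64 co-receptors, adaptors and effectors of these receptors were listed, of which 63 were in the files and 47 passed the filter. Dex in siNS changed 2 of these 47 (4.26%, against 2.71% of all genes). HP1γ depletion with Dex changed 20 (42.6%, against 24%), 10 in each direction, and PRMT5 depletion with Dex 26 (55.3%, against 42.4%), 7 up and 19 down. Without Dex HP1γ depletion changed 24 (51.1%, against 31.8%), 18 up and 6 down, and PRMT5 depletion 26 (55.3%, against 42.1%), 13 in each direction. NRP1, the neuropilin that binds SEMA3A, rose in all 4 comparisons of a depletion with siNS, from a mean of 249.8 ± 16.4 CPM in siNS Dex to 290.2 ± 15.5 CPM in siHP1γ Dex and 369 ± 6.91 CPM in siPRMT5 Dex. NRP2, the neuropilin that binds SEMA3F, was at 29.5, 25.1 and 25.8 CPM in siNS Dex, 40.4, 40.2 and 40.1 CPM in siHP1γ Dex and 18.4, 17.6 and 20.3 CPM in siPRMT5 Dex. The 3 groups of NRP2 did not overlap, and it rose in siHP1γ (log2 fold change 0.58, adjusted p = 0.000161) and fell in siPRMT5 (-0.52, adjusted p = 0.000536).

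NCK2, an adaptor that links Eph receptors and ephrin-B ligands to the cytoskeleton, had the largest decrease of these genes under siPRMT5. It was at 40.72, 46.2 and 44.8 CPM in siNS Dex and 6.55, 8.71 and 6.90 CPM in siPRMT5 Dex (log2 fold change -2.55, SE 0.113, adjusted p = 3.29e-15), and at 45.6, 55.7 and 54.7 CPM in siHP1γ Dex. FARP1, a guanine nucleotide exchange factor that acts with class A plexins, had a log2 fold change of -0.97 and DPYSL2, the collapsin response mediator, of -0.89 in siPRMT5 with Dex. ENAH, an actin regulator, rose by 0.54 and SRGAP3, a SLIT-ROBO GTPase activating protein with under 1 CPM on average, by 1.85 on the log2 scale. The rise of SRGAP3 rests on 7 counts in the siNS Dex libraries together and 26 in siPRMT5 Dex. Its counts were highest in siPRMT5 Eth, at 42, so the filter on low counts itself favours a higher level under siPRMT5. In siHP1γ with Dex RAP1GAP (1.06) and NGEF (0.69), the latter an exchange factor downstream of EPHA4, rose, and PTPN11 (-0.66), TIAM1 (-0.46) and NCK1 (-0.42) fell, in log2 fold change. Among the members, 8 passed in neither the Dex comparison in siNS nor any of the 4 depletion comparisons with siNS.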

How the data were processed

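RNA of 18 MDA-MB-231 cultures was sequenced, and groups were taken from the sample labels. The authors prepared libraries with a Lexogen kit, mapped the reads on hg38 with Bowtie2 2.4.2 and counted them with htseq-count (HTSeq 0.9.1); the annotation, strand setting and read length are not given in the sources used here. Reads that cross an exon junction may be missing, since Bowtie2 does not align over introns. The authors deposited raw counts per gene symbol, used here, and the output of their DESeq2 comparisons (log2 fold changes and adjusted p-values), not used here. For DESeq2 the paper gives the Galaxy version, 2.11.40.7.

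Genes were kept by filterByExpr over the 6 conditions, which left 15298 of 60642 symbols, and scaled by TMM. All 18 libraries entered a quasi-likelihood fit (edgeR 4.0.16, R 4.3.3) that estimated a mean for each condition (12 residual degrees of freedom), and p-values were adjusted over all genes tested by Benjamini-Hochberg. The threshold for a depletion is the one the study states. For the Dex response the study states 2 fold changes, at least 1.5 and at least 2, with an adjusted p under 0.01 beside the latter; 1.5 with that p was used, and 2 as an alternative. The members and lists, and the rule for genes given in full (members past the threshold for Dex in siNS or for an interaction, and the 4 largest changes in each direction per depletion at a mean of at least 1 CPM; of the other genes NRP1, NRP2 and the 3 largest in each direction with Dex), were chosen with earlier results of these data known. EPHA2, EPHA5, EFNB1, PLXNB2, SEMA4D, SEMA6A and SLIT2 were named outside that rule after their values were seen.

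Every library had at least 8682992 counts; low counts limit members under 1 CPM. Transcript length, GC content and overlaps came from GENCODE 44, promoters from RefSeq (GRCh38.p14). Replicates differed beyond counting noise (chi-square per degree of freedom 2.01 to 11.3). With 3 against 3 libraries an exact permutation test cannot go below p = 0.1, so the model across genes was used. Alternatives were DESeq2 1.42.0, its size factors, library size alone, no filter, a block for the replicate number, at least 10 counts per library throughout, the compared libraries alone, a fold change of at least 2, leaving out each library, and, added after seeing the data, offsets for GC content and length. On simulated counts with 200 changed genes the fit recovered 192 for Dex in siNS among 15047 genes, with 5.88% false calls. It recovered 194 for siPRMT5 with Dex among 15028 genes (5.37%), and 163 for the siPRMT5 interaction among 15037 genes (4.12%). These totals are not split by count level, and recovery under the Dex rule (adjusted p below 0.01 with 1.5-fold) is not given. They therefore do not show how well that rule performs. Nor do they show recovery for members at few counts, such as UNC5A (259 over 18 libraries) and SEMA4G (470).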

Additional observations from a re-analysis of the deposited data

Results flagged for a closer look

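The members below had a Dex response that differed between a depletion and siNS by the interaction test of edgeR, given as the log2 fold change for Dex under the depletion minus that in siNS. For siHP1γ these were EPHB2 (-0.65) and PLXNA1 (-0.71). For siPRMT5 the differences were lower for the Eph receptors EPHB2 (-0.78), EPHB3 (-1.51) and EPHB4 (-0.57) and the plexins PLXNA1 (-0.55), PLXNA3 (-1.10) and PLXND1 (-0.54). They were also lower for the ROBO genes ROBO1 (-0.61), ROBO3 (-0.59) and ROBO4 (-0.50), and for SEMA3F (-0.89). They were higher for EPHA4 (0.67), NTN4 (0.39), PLXNC1 (1.11) and SEMA3C (0.56). Adjusted p-values ranged from 0.00196 (EPHB2) to 0.0493 (NTN4) for siPRMT5, and both siHP1γ values had an adjusted p of 0.0229. With the offset for GC content and length, chosen after seeing the data, the siPRMT5 difference passed for EPHA4, EPHB2, NTN4, PLXNA3, PLXNC1, ROBO1 and SEMA3C, and the siHP1γ difference for PLXNA1.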

How the results depend on the processing

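The counts of called members for Dex in siNS kept the same 8 genes under every alternative with the 1.5-fold limit except leaving out a library, where they were 7 to 8. With a fold change of at least 2 the counts were 4 in siNS, 1 in siHP1γ and 5 in siPRMT5. Shares over all genes are not given beside most counts under the alternatives, nor beside the splits with the GC and length offset above. These counts show how the calls moved, and not whether members moved more than other genes. With the offsets for GC content and length the interaction counts were 7 for siPRMT5 and 1 for siHP1γ, and with no filter on low counts the siHP1γ count was 4. When each library was left out in turn, the counts ranged from 5 to 11 for siHP1γ against siNS with Dex, 8 to 15 without Dex, 23 to 28 for siPRMT5 with Dex, 18 to 24 without Dex, 6 to 7 for Dex in siHP1γ, 10 to 12 for Dex in siPRMT5, 24 to 28 between the depletions, 5 to 16 for the siPRMT5 interaction and 0 to 3 for the siHP1γ interaction, which was 0 without replicate 1 or 3 of siNS Eth, siNS Dex or siHP1γ Eth, and 1 without siHP1γ Dex replicate 1 or siNS Dex replicate 2. Scaling by library size alone changed the split of siHP1γ calls with Dex from 5 up and 6 down to 7 up and 4 down, and that over all genes from 1787 up and 1882 down to 2848 up and 1269 down. Without Dex it gave 3198 up and 1814 down over all genes, against 2531 and 2329. Of 55 named fold changes and interactions, none changed direction, and 114 of 990 values with a library left out and 26 of 429 under other alternatives no longer passed.

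The labels do not say whether the replicate numbers pair the samples. Same-numbered libraries correlated at -0.168 to 0.274 in their deviations from the group means, against means of -0.135 to 0.0883 for other numbers. These values had mixed signs and do not settle whether some samples were paired. With the replicate number as a block the counts were 8 for Dex in siNS, 11 and 15 for siHP1γ with and without Dex, 26 and 24 for siPRMT5, 13 for the siPRMT5 interaction and 2 for the siHP1γ interaction. Depth limits EPHA5, EPHA6, EPHA7, ROBO2, SEMA3B, SEMA6A, UNC5A and UNC5B, each with fewer than 100 counts over the 3 libraries of every condition.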
